A study of Mus musculus with 4 samples.

Results

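Cytosolic ribosomal protein genes were examined in livers of Fto knockout (KO) mice and wild-type (WT) mice. The genes were taken by symbol: protein-coding genes named Rpl or Rps with a number and, where present, a closing letter such as a, l or x, together with Rplp0, Rplp1, Rplp2 and Rpsa. Of the 37315 genes in the count files, 83 met this rule, 51 encoding proteins of the large subunit and 32 encoding proteins of the small subunit. Rpl24 was not analysed here. RNA-seq counts were available for 2 KO libraries and 2 WT libraries, all made from liver of C57BL/6 mice aged 23 weeks after selection of polyadenylated RNA. The allele by which Fto was disrupted is not given in the sources used here. Fto encodes an enzyme that removes methyl groups from adenosines in RNA, and the study compared transcript levels in liver with and without it.

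A cytosolic ribosome consists of a small subunit, which reads the mRNA, and a large subunit, which joins amino acids. Each ribosomal protein is generally needed once per ribosome, and in mammals nearly every one is encoded by a single expressed gene with many processed pseudogenes. Their mRNAs are abundant and short, and most begin at a cytosine followed by a run of pyrimidines, the 5' terminal oligopyrimidine (TOP) motif, through which the kinase mTOR and the RNA-binding protein Larp1 control their translation. A few members have a close paralog whose product can take the same place in the ribosome, and several have roles outside it, among them the binding of the p53 inhibitor Mdm2 by Rpl5, Rpl11 and Rpl23.

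The libraries held 44689114 and 40947808 counts in KO and 41332870 and 39549592 counts in WT, over 18758 to 19267 genes with at least 1 read. Fto itself had 607 and 486 reads in the KO libraries, against 1749 and 1292 reads in the WT libraries. Its log2 fold change was -1.57 (SE 0.195, adjusted p = 0.0109, edgeR quasi-likelihood test with Benjamini-Hochberg adjustment over all tested genes), so the labels of the 4 libraries matched the level of the targeted gene, although a KO library still held reads of it. The summed level of 11 hepatocyte markers was 99205 and 105524 CPM (reads of a gene scaled to a common library size) in KO and 90006 and 98047 CPM in WT. Summed levels of 8 Kupffer cell (liver macrophage) markers were 272 and 290 CPM in KO and 125 and 185 CPM in WT. Their log2 fold change was positive for 8 of 8, and 2 were called higher (adjusted p under 0.05, edgeR). Of all 13836 tested genes, 50.8% were positive and 0.961% were called higher. The 4 erythroid markers summed to 170 and 191 CPM in KO and 241 and 277 CPM in WT, and the 5 T cell markers to at most 1.87 CPM in any library. Any part of these cell types in the values below was not tested. In whole liver, fewer cells of a type cannot be told apart from less RNA per cell.

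Most ribosomal protein mRNAs lay slightly higher in KO than in WT liver, but no single one passed edgeR's test with genotype as the only term. A total of 80 of the 83 genes had enough reads to be tested, 48 of the large and 32 of the small subunit. Of these, 0 were called at an adjusted p under 0.05 by edgeR, against 1.91% of all 13836 tested genes (264 genes), 0.961% higher and 0.947% lower in KO. None of the 80 reached an unadjusted p under 0.05 with edgeR or DESeq2, against 13.0% of all tested genes with edgeR, and 1 did with limma-voom; with an offset for transcript length in edgeR 29 did, of which 0 were called. The log2 fold change was positive for 79 of 80, against 50.8% of all tested genes, and negative for Rps27l alone. The median was 0.21 (quartiles 0.16 and 0.30), beside a median of 0.01 for all tested genes. Standard errors of single genes ran between 0.166 and 0.252, so 33 of the 80 lay within 1 SE of 0 and 5 lay more than 2 SE from it. Of all 13836 tested genes, 7584 lay within 1 SE of 0 and 2430 lay more than 2 SE from it.

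Measured library by library, both KO values exceeded both WT values for 31 of the 80 genes (38.8%), against 21.6% of all tested genes. Both KO values were below both WT values for 1 of the 80, Rps27l, against 20.4% of all tested genes. The genotypes overlapped for the other 48. Compared within replicate number 1, 79 genes were higher in KO, with a median log2 ratio of 0.30, and within number 2, 72 were higher in KO, with a median of 0.16. A total of 72 genes had a positive ratio within both numbers, as did 36.0% of all tested genes. The size of the median rested on single libraries: it was 0.32 without KO replicate 1, 0.12 without KO replicate 2, 0.07 without WT replicate 1 and 0.38 without WT replicate 2, with 77, 67, 56 and 78 of 80 genes positive. In the same order, the medians of all genes tested in those fits were -0.022, 0.004, 0.032 and 0.004.

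**Figure D1:**
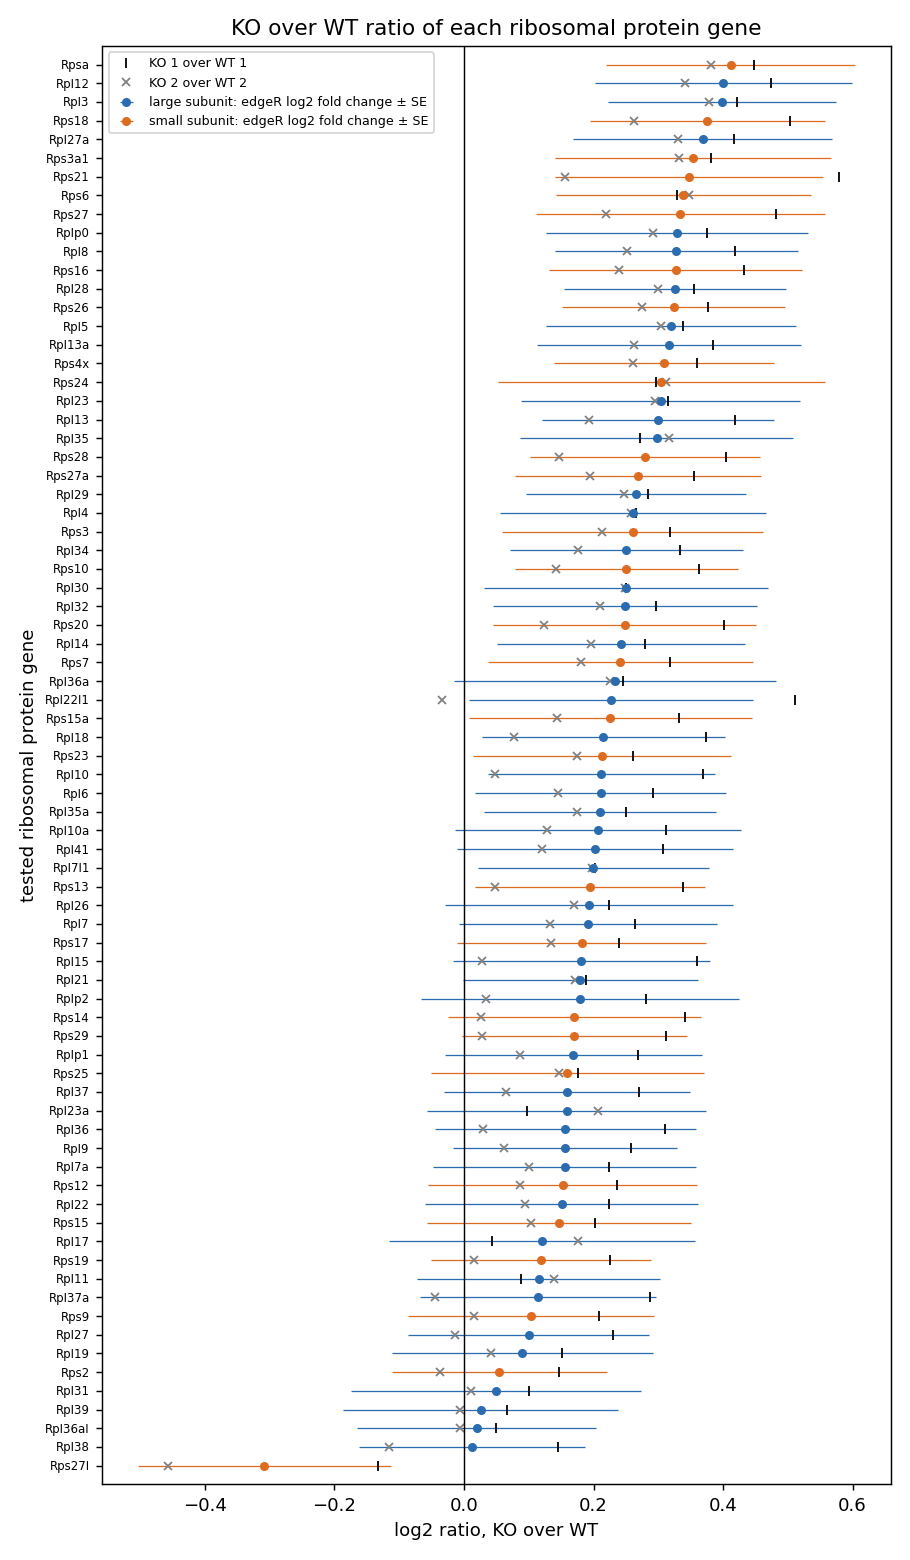
KO over WT log2 ratio (horizontal axis) of 76 of the 80 tested ribosomal protein genes (rows, sorted). Circles with bars are the edgeR log2 fold change ± SE, blue for the large and orange for the small subunit. Black ticks and grey crosses are the ratios within replicate number 1 and number 2. Every gene but Rps27l has its circle right of 0, and the bars of 33 genes reach 0.

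Other short, abundant genes had mostly negative values. Genes outside the family with a transcript under 1500 nucleotides and a level of at least 50 CPM numbered 584. Their median log2 fold change was -0.09, 32.9% of them were positive, and in 13.4% both KO values exceeded both WT values. Of the 80 ribosomal protein genes, 75 had a transcript under 1500 nucleotides, with a median length of 680.5 nucleotides against 2587 for all tested protein-coding genes. Among the 80 themselves, Spearman's rho of the log2 fold change was 0.37 with transcript length, 0.00 with GC content and -0.16 with the level per kilobase. These correlations are across genes (n = 80) that share the same 4 libraries, and are given as a description.

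**Figure D2:**
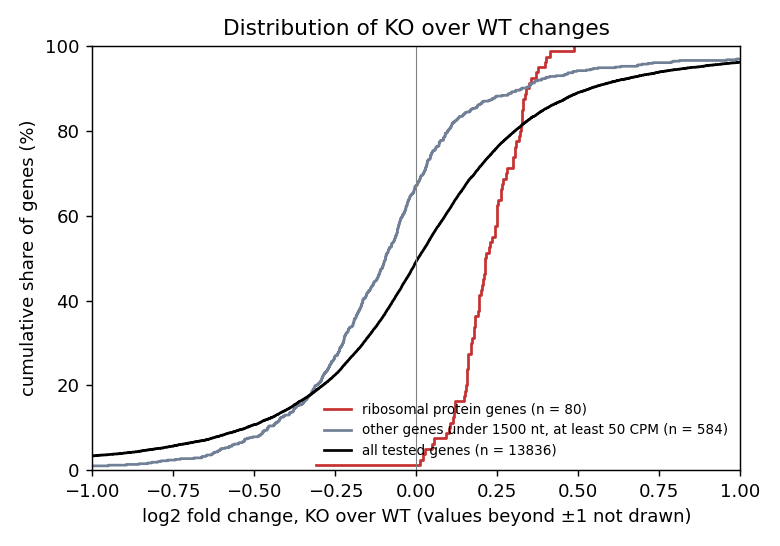
Cumulative share of genes (vertical axis, percent) at or below each log2 fold change, KO over WT (horizontal axis), for the 80 tested ribosomal protein genes (red), the 584 other short, abundant genes (grey) and all 13836 tested genes (black). The red curve lies right of 0 for 79 of 80 genes, while the grey curve crosses 0 with 32.9% of its genes to the right.

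Summed over the family, ribosomal protein genes took 1.46% and 1.56% of all counted reads in the KO libraries, against 1.17% and 1.36% in the WT libraries. The mean was 1.51% ± 0.0726 in KO and 1.27% ± 0.134 in WT (SD, n = 2 each), a difference of 0.240 percentage points. The 2 genotypes did not overlap, and the two-sided exact permutation p was 0.33, the smallest that 2 against 2 libraries allow. Large subunit genes took 0.879% and 0.954% in KO, against 0.714% and 0.831% in WT. Small subunit genes took 0.580% and 0.607% in KO, against 0.461% and 0.533% in WT. The ratio of large to small subunit reads was 1.52 and 1.57 in KO and 1.55 and 1.56 in WT, with overlapping genotypes and a two-sided exact permutation p of 1. The genotype means differed by -0.0116, less than the spread between the KO libraries (SD 0.0380) and slightly more than that between the WT libraries (SD 0.00738). The median log2 fold change was 0.21 for the large subunit (48 of 48 positive, 16 with both KO values above both WT values) and 0.25 for the small subunit (31 of 32 positive, 15 with both KO values above).

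**Figure D3:**
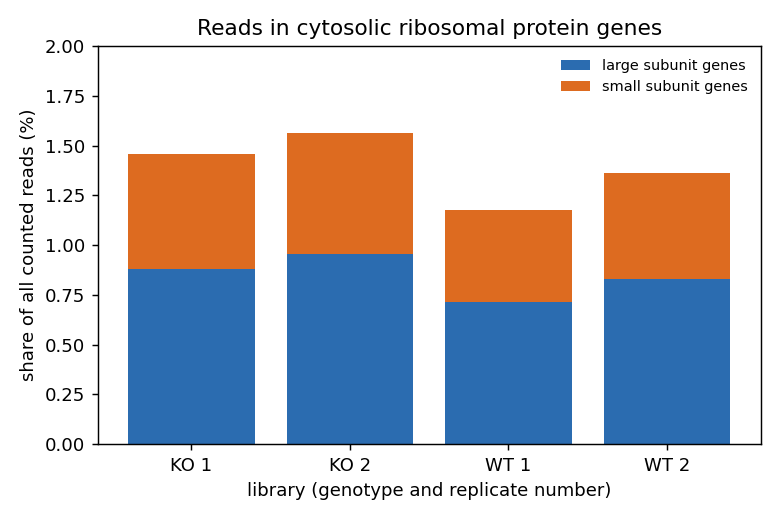
Share of all counted reads (vertical axis, percent) in large subunit genes (blue) and small subunit genes (orange, stacked on top), for each KO and WT library. The 2 KO bars reach 1.46% and 1.56% and the 2 WT bars 1.17% and 1.36%.

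In the small subunit, Rpsa and Rps18 were among the genes with the highest log2 fold changes. Rpsa, also known as the laminin receptor precursor, had 414 and 490 CPM in KO and 303 and 376 CPM in WT. Both KO libraries lay above both WT libraries, and the log2 fold change was 0.41 (SE 0.192), with an adjusted p of 0.426 in edgeR's test. Rps18, a protein of the head of the small subunit, had 239 and 248 CPM in KO and 169 and 206 CPM in WT, with a log2 fold change of 0.38 (SE 0.181). Rps6, the substrate of the S6 kinases below mTOR, had 168 and 208 CPM in KO and 134 and 164 CPM in WT. The lower KO library of Rps6 lay just above the higher WT library, and its log2 fold change was 0.34 (SE 0.197).

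Rps3, Rps14, Rps19 and Rps2 had smaller values. Rps3, which also takes part in DNA repair and NF-kappaB signalling, had 235 and 282 CPM in KO and 188 and 243 CPM in WT, overlapping, with a log2 fold change of 0.26 (SE 0.201). Rps14, the gene of the human 5q- syndrome, had 185 and 197 CPM in KO and 146 and 193 CPM in WT, also overlapping, with a log2 fold change of 0.17 (SE 0.195). Rps19, the gene most often mutated in human Diamond-Blackfan anaemia, had 136 and 131 CPM in KO and 116 and 130 CPM in WT, a log2 fold change of 0.12 (SE 0.170). For Rps19 the lower KO value lay only just above the higher WT value. Rps2 was the most abundant small subunit gene per kilobase and had 530 and 502 CPM in KO and 479 and 515 CPM in WT, a log2 fold change of 0.05 (SE 0.166).

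In the large subunit, Rpl12 and Rpl3 had the highest log2 fold changes. Rpl12, a protein of the base of the stalk, had 183 and 215 CPM in KO and 131 and 169 CPM in WT, with a log2 fold change of 0.40 (SE 0.198). Rpl3, which reaches towards the peptidyl transferase centre, had 187 and 208 CPM in KO and 140 and 160 CPM in WT, with a log2 fold change of 0.40 (SE 0.176). Both genes had KO values above both WT values, and neither was called. At the other end, Rpl38, known in mouse for its part in translating Hox mRNAs, had 95.9 and 91.3 CPM in KO and 86.7 and 98.9 CPM in WT, a log2 fold change of 0.01 (SE 0.175). Rpl39, a small protein of the nascent chain exit tunnel, had 53.0 and 66.1 CPM in KO and 50.6 and 66.3 CPM in WT, a log2 fold change of 0.03 (SE 0.213). Rpl31, near the end of the same tunnel, had 118 and 152 CPM in KO and 110 and 151 CPM in WT, a log2 fold change of 0.05 (SE 0.223). For these 3 the KO and WT ranges overlapped.

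The 31 genes whose KO values both exceeded both WT values were spread over both subunits. In the large subunit these 16 included Rpl3, Rpl5, Rpl7l1, Rpl8, Rpl9, Rpl10, Rpl12, Rpl13, Rpl18, Rpl27a, Rpl28, Rpl29, Rpl34, Rpl35a and Rplp0. In the small subunit these 15 included Rps4x, Rps6, Rps10, Rps13, Rps16, Rps18, Rps19, Rps21, Rps26, Rps27a, Rps28, Rps29 and Rpsa. Among those named, log2 fold changes ran between 0.12 (Rps19) and 0.41 (Rpsa). Of the 21 genes with a log2 fold change over 0.3, 16 separated in this way, as did 15 of 52 between 0.1 and 0.3 and 0 of 7 under 0.1. Single genes departed from this. Rps24, one of the most abundant of the family per kilobase, had 205 and 297 CPM in KO and 167 and 239 CPM in WT, with overlap at a log2 fold change of 0.31 (SE 0.252). Rps29 had 115 and 104 CPM in KO and 92.3 and 102 CPM in WT, without overlap at a log2 fold change of 0.17 (SE 0.174).

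Several abundant members illustrate how the values lay. Rpl8, which contacts the rRNA near the peptidyl transferase centre, had 377 and 420 CPM in KO and 282 and 353 CPM in WT (log2 fold change 0.33, SE 0.188). Rpl4, which lines the exit tunnel, was the highest of the family in CPM, with 582 and 738 CPM in KO and 484 and 617 CPM in WT (log2 fold change 0.26, SE 0.205). For Rpl8 the KO libraries lay above the WT libraries, and for Rpl4 KO replicate 1 lay below WT replicate 2. Rpl10, which joins the large subunit late in its maturation, had 348 and 299 CPM in KO and 269 and 289 CPM in WT (log2 fold change 0.21, SE 0.175). Rps26, at the mRNA exit site, had 117 and 123 CPM in KO and 90.1 and 102 CPM in WT (log2 fold change 0.32, SE 0.172). Rps27a, made as a fusion to ubiquitin, had 130 and 146 CPM in KO and 102 and 128 CPM in WT (log2 fold change 0.27, SE 0.190). These 3 genes had no overlap between genotypes, and the smallest gap in CPM was that of Rps27a, between KO replicate 1 and WT replicate 2.

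Of the members with roles outside the ribosome, 5 are described here, among them those that bind Mdm2, with log2 fold changes between 0.12 and 0.32. Rpsa, described above, lay outside that range at 0.41. Rpl5 had 213 and 256 CPM in KO and 169 and 207 CPM in WT (log2 fold change 0.32, SE 0.193), without overlap. Rpl11, its partner in the 5S ribonucleoprotein, had 181 and 220 CPM in KO and 171 and 200 CPM in WT (log2 fold change 0.12, SE 0.188), with overlap. Rpl23 had 253 and 329 CPM in KO and 204 and 268 CPM in WT (log2 fold change 0.30, SE 0.215), also with overlap. Rpl26, which binds the p53 mRNA in human cells, had 152 and 199 CPM in KO and 130 and 177 CPM in WT (log2 fold change 0.19, SE 0.222). Rpl13a, which is released from the ribosome to silence inflammatory mRNAs in human macrophages, had 312 and 377 CPM in KO and 239 and 314 CPM in WT (log2 fold change 0.32, SE 0.204). None of these 5 genes was called, and differences between them were not tested.

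The stalk proteins, which recruit elongation factors to the large subunit, did not vary alike between replicates. Rplp0, the anchor of the stalk, had 408 and 498 CPM in KO and 314 and 406 CPM in WT. Rplp1 had 252 and 291 CPM in KO and 209 and 274 CPM in WT. Both genes were higher in replicate 2 of each genotype. Rplp2, whose protein pairs with that of Rplp1, had 146 and 95.2 CPM in KO and 120 and 93.0 CPM in WT, so replicate 2 was the lower one in each genotype. Their log2 fold changes were 0.33 (SE 0.202), 0.17 (SE 0.198) and 0.18 (SE 0.245), in the order Rplp0, Rplp1 and Rplp2, and that of Rplp2 turned negative without KO replicate 1.

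The difference between replicates was of the size of the difference between genotypes. Set against replicate 1 of the same genotype, replicate 2 had a median log2 ratio of 0.20 in KO (67 of 80 genes positive) and of 0.35 in WT (77 of 80 positive), beside -0.01 in KO and 0.02 in WT for all tested genes. The 584 other short, abundant genes had medians of 0.17 in KO and 0.29 in WT. The summed level of 4 adipocyte markers was also higher in replicate 2, with 0.497 and 6.30 CPM in KO and 3.33 and 9.75 CPM in WT. In WT replicate 1, 1 of these markers gave 3.28 CPM. Sums of hepatocyte, Kupffer cell, stellate, erythroid, B cell and pancreas acinar markers were likewise higher in replicate 2 of both genotypes. Those of cholangiocyte markers were lower in both, and those of endothelial, T cell and neutrophil markers differed in direction between genotypes. The part of any cell type in this gap was not tested. A total of 67 ribosomal protein genes were higher in replicate 2 in both genotypes and 3 were lower in both, Rplp2 and Rpl14 among them. Rpl14 had 197 and 159 CPM in KO and 162 and 139 CPM in WT. Across the 80 genes, the ratio in KO and the ratio in WT had a Pearson r of 0.80, a description over genes of the same 4 libraries.

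**Figure D4:**
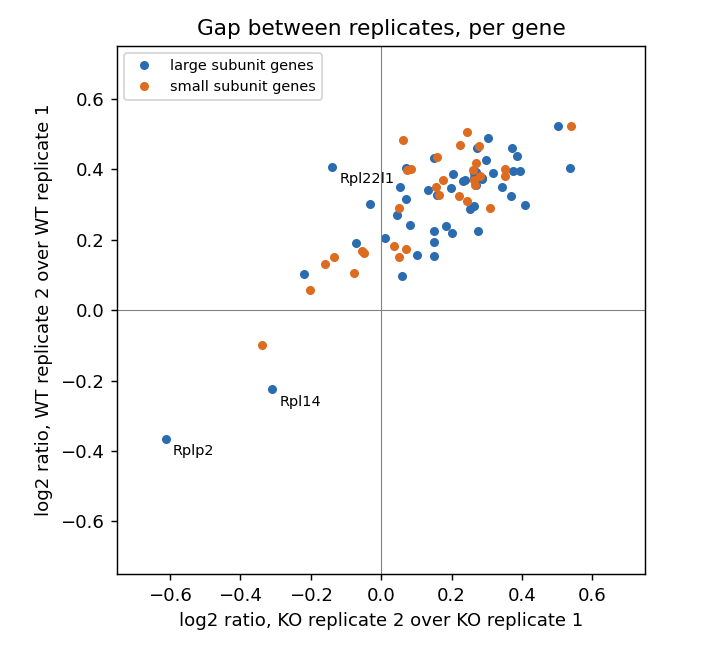
Log2 ratio of replicate 2 over replicate 1 in KO (horizontal axis) and in WT (vertical axis), 1 point per tested ribosomal protein gene, blue for the large and orange for the small subunit. A total of 67 genes lie at the upper right and 3, Rplp2 and Rpl14 among them, at the lower left; Rpl22l1 is labelled in the upper left.

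Among paralog pairs, Rps27l and Rps27 had log2 fold changes of opposite sign. Rps27l encodes a near copy of the small subunit protein Rps27 and is known as a target of p53 in human and mouse cells. Rps27l (chromosome 9, 66946086 to 66949516, plus strand, GRCm38) had 4391 and 4002 reads in KO, against 4418 and 5223 reads in WT, which is 95.0 and 100.0 CPM in KO and 104 and 137 CPM in WT. Both KO values lay below both WT values, and the log2 fold change was -0.31 (SE 0.195, adjusted p = 0.593 in edgeR's test), so it was not called. Rps27 (chromosome 3, 90212522 to 90213651, minus strand) had 1836 and 1882 reads in KO, against 1206 and 1537 reads in WT, so KO and WT overlapped (log2 fold change 0.33, SE 0.223, adjusted p = 0.618). Rps27l took 70.5% and 68.0% of the reads of the pair in KO, against 78.6% and 77.3% in WT. The means were 69.3% ± 1.77 in KO and 77.9% ± 0.914 in WT (SD, n = 2 each), a difference of -8.64 percentage points with an exact two-sided permutation p of 0.33, the smallest possible, and of 1 after Benjamini-Hochberg adjustment over the 8 pairs compared. The gap between genotypes exceeded that between replicates of either genotype.

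The coding sequences of the pair are shown because they bear on whether a read from that part of the transcript can be told apart between the 2 genes. They are given without the stop codon, from the GENCODE M21 annotation on GRCm38, with capitals marking the bases at which the pair differs.
Rps27: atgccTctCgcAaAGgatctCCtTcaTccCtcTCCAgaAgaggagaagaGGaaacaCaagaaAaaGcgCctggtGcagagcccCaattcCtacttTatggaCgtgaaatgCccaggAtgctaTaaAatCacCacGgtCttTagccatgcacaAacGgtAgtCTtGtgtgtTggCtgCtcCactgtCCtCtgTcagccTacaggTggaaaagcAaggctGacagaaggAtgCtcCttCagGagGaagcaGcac
Rps27l: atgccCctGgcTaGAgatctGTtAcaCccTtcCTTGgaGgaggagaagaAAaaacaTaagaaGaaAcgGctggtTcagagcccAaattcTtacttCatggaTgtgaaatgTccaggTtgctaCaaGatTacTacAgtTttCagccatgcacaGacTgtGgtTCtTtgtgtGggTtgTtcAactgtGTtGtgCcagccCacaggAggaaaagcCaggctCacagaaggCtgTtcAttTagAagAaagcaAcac
Over 252 bases the pair was identical at 192 (76.2%) and differed at 60, and the longest identical run was 11 bases, far below the read length of 101 bases. No window of 101 bases in the Rps27l transcript occurred in a transcript of another gene. Rps27 differed in this: 98.4% of its windows also occurred elsewhere, and the coding sequence of Rps27rt (chromosome 9, 114982366 to 114982739) was identical to it over all 252 bases. Rps27rt, which the symbol rule leaves out, had 2647 and 2600 reads in KO, against 1765 and 2028 reads in WT (log2 fold change 0.37, SE 0.198, adjusted p = 0.515). The level of Rps27 and its share of the pair are therefore uncertain, since the counting may have divided its reads with Rps27rt or dropped them. Cdkn1a, a p53 target named here after its values were seen, had 46 and 45 reads in KO, against 435 and 515 reads in WT, and its log2 fold change was -3.49 (SE 0.268, adjusted p = 0.00135). A link between the 2 genes was not tested.

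**Figure D5:**
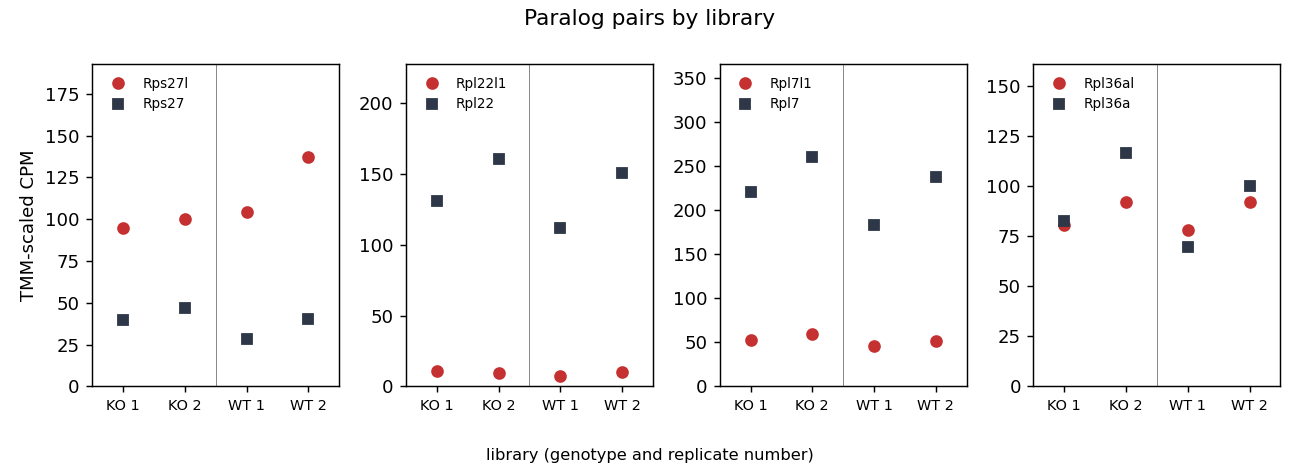
TMM-scaled CPM (vertical axis) in each KO and WT library for 4 pairs, with the paralog as red circles and its partner as dark squares. Rps27l lies between 95.0 and 137 CPM with both KO points lowest, while its partner Rps27 stays between 28.4 and 47.0 CPM; Rpl22l1 and Rpl7l1 lie far below their partners in every library.

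In the Rpl22 pair the genotypes overlapped. Rpl22l1 (chromosome 3, 28805436 to 28807424) encodes a paralog of Rpl22 whose transcript is repressed by the Rpl22 protein in mouse cells. It had 491 and 386 reads in KO, against 316 and 376 reads in WT, and a log2 fold change of 0.23 (SE 0.219). The values overlapped, with a log2 ratio of KO over WT of 0.51 within number 1 and -0.03 within number 2. Rpl22 had 131 and 160 CPM in KO and 112 and 150 CPM in WT, a log2 fold change of 0.15 (SE 0.211). Rpl22l1 took 7.52% and 5.67% of the reads of the pair in KO and 6.24% and 6.16% in WT (exact two-sided permutation p = 1).

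The remaining paralogs fell into those expressed with their partner and those with few or no reads in these livers. Rpl7l1 took 19.4% and 18.5% of the reads of its pair with Rpl7 in KO and 20.1% and 17.8% in WT. Rpl36al, whose coding sequence is 87.7% identical to that of Rpl36a, took 49.5% and 44.0% in KO and 52.9% and 48.0% in WT, nearly equal to its partner. Its log2 fold change was 0.02 (SE 0.185) and that of Rpl36a was 0.23 (SE 0.249). Of the Rpl36a transcript, 83.6% of the windows of 101 bases were shared with another gene, and of Rpl36al 58.9%, so the split of their reads is uncertain. Rpl10l and Rpl39l, both best known from testis, had 0 reads in each of the 4 libraries. A count of 0 allows at most 0.0187% and 0.0251% of the Rpl10 pair in KO and 0.0263% and 0.0273% in WT, where the limit is 3 reads and covers counting error only. Rpl3l, the form of striated muscle, had 5 and 7 reads in KO and 7 and 1 reads in WT and was too low to test. Rps4l, annotated as a transcribed processed pseudogene and so not in the family by the rule, took 4.49% and 7.09% of its pair with Rps4x in KO and 5.88% and 7.40% in WT. For these pairs the genotypes overlapped or held no reads.

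Levels per kilobase of transcript spanned a wide range, 17.9 to 536 CPM per kilobase over the 80 tested genes. The median was 225.8 CPM per kilobase, with quartiles of 154 and 297. The median of the large subunit was 243 CPM per kilobase in KO and 221 in WT, and that of the small subunit 232 in KO and 203 in WT. Rpl41, which encodes one of the shortest known proteins, stood highest, with 574 CPM per kilobase in KO and 499 in WT. Rplp1 followed with 544 in KO and 484 in WT, Rps2 with 517 in KO and 498 in WT, and Rps24 with 536 in KO and 434 in WT. Rpl22l1 stood lowest of the tested genes, with 19.3 CPM per kilobase in KO and 16.5 in WT. Rps20, with 39.8 in KO and 33.5 in WT, has a coding transcript model of 3706 nucleotides in the annotation, most of it 3' UTR, which lowers its level per length. Rpl7l1 had 42.8 in KO and 37.3 in WT, and Rpl23a had 54.7 in KO and 49.0 in WT. For Rpl23a, 80.0% of the windows of 101 bases were shared with other genes, so reads may have been lost from it.

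Sequence shared with other genes touches much of the family, and pseudogenes and coding genes were not told apart in this count. Over the 80 genes, the median share of 101-base windows found in another gene's transcripts was 41.1%, 32 genes had more than 50% shared and 6 had none. The 12 genes with under 10% shared had a median log2 fold change of 0.25, with 11 positive, and the 32 with over 50% shared had a median of 0.21, with 32 positive. Pseudogene rows named after the family, 219 in all, held 0.187 and 0.217 counts per 100 counts of the family in KO and 0.214 and 0.196 in WT.

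The start sites were searched for motifs known from this family, since the TOP motif sits exactly there. A few are shown. They were picked and do not represent how often CTTTCC occurs in the family, which is given below. Promoter windows from 250 bases before to 50 bases after the start were matched by symbol in RefSeq (GRCm38.p6) for 63 of the 83 genes. The stretches below run from 30 bases before to 15 bases after the annotated start, written 5' to 3' on the strand of the gene, with CTTTCC and CCGGAAG in capitals. They lie at chr14:18270972-18271016 (minus strand) for Rpl15, chr7:4792935-4792979 (plus strand) for Rpl28, chr11:114668550-114668594 (plus strand) for Rpl38, chr3:90213634-90213678 (minus strand) for Rps27 and chr9:66946056-66946100 (plus strand) for Rps27l.
Rpl15: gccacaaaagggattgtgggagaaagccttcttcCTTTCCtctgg
Rpl28: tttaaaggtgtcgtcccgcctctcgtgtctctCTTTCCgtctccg
Rpl38: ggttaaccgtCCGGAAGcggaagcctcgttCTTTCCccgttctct
Rps27: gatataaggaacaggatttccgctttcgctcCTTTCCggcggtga
Rps27l: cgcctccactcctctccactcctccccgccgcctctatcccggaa
In the first 4 a run of pyrimidines with CTTTCC spans or adjoins the RefSeq start, and in Rps27l those letters are not in this stretch. The RefSeq start lay 16 bases from that of the GENCODE transcript for Rpl15, 25 for Rpl28 and 46 for Rpl38. For Rps27 the distance was 3 bases and for Rps27l 0, so where transcription begins is uncertain for some of them. Within 30 bases either side of the start, CTTTCC occurred on the gene's strand in 12 of 63 genes (19.0%), against 3.4% of all 27025 genes with a window and 3.5% of tested ones. The ETS core CCGGAAG occurred on either strand of the whole window in 26 of 63 (41.3%), against 9.9% of all genes and 19.1% of tested ones. CTTTCC, whose reverse complement is GGAAAG, and CCGGAAG share the letters GGAA, but neither contains the other. The TATA box TATAAA occurred on either strand of the whole window in 7 of 63 (11.1%), against 15.7% of all genes and 9.2% of tested ones. Within 30 bases of the start TATAAA occurred in 4 of 63 (6.3%), against 3.4% and 2.2%. The YY1 core GCCATCTT occurred in the whole window in 6 of 63 (9.5%), against 3.2% of all genes and 5.1% of tested ones. The 11 tested genes with CTTTCC near the start had a median log2 fold change of 0.25 (range 0.01 to 0.33), and the 49 without had a median of 0.21 (range -0.31 to 0.41). A match of letters is a description and not a site.

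Ribosomal proteins that the symbol rule leaves out lay in the same range. Rack1, a scaffold protein of the small subunit, had 312 and 365 CPM in KO and 213 and 289 CPM in WT, with both KO values above both WT values (log2 fold change 0.43, SE 0.207, adjusted p = 0.445). Fau, whose protein is made as a fusion to a ubiquitin-like protein, had 164 and 178 CPM in KO and 139 and 175 CPM in WT (log2 fold change 0.12, SE 0.187). Genes of the TOP class, most but not all of them encoding translation factors, were described from a list of 19 tested genes. Of these, 0 were called by edgeR or DESeq2 and 0 had an unadjusted p under 0.05 with either. A total of 16 were positive and the median was 0.12. In 4 both KO values exceeded both WT values, near the 21.6% of all tested genes. Eef2, the translocation factor, had a log2 fold change of 0.28 (SE 0.169), Eif4b, which aids unwinding of mRNA, 0.27 (SE 0.175), and Eef1a1, which delivers aminoacyl-tRNA, 0.24 (SE 0.186).

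Genes for building ribosomes gave larger single values than the ribosomal proteins themselves. Of 31 tested genes of ribosome biogenesis, 0 were called by edgeR or DESeq2 and 6 had an unadjusted p under 0.05 with each, against 13.0% of all tested genes with edgeR. A total of 27 were positive, and the median was 0.21. In 16 both KO values exceeded both WT values, against 21.6% of all tested genes. Gnl3, a nucleolar GTPase, had 1840 and 1760 reads in KO, against 1059 and 1031 reads in WT (log2 fold change 0.69, SE 0.180, adjusted p = 0.127). It was called by edgeR without the filter on low counts (adjusted p = 0.0445) and with the length offset (adjusted p = 0.0382). Tsr1, a maturation factor of the small subunit, had 13.9 and 14.5 CPM in KO, against 8.77 and 8.80 CPM in WT (log2 fold change 0.69, SE 0.185, adjusted p = 0.139). Nop2, an rRNA methyltransferase, had 27.6 and 29.7 CPM in KO, against 18.8 and 18.7 CPM in WT (log2 fold change 0.61, SE 0.177, adjusted p = 0.174). Polr1a, the largest subunit of RNA polymerase I, had 34.8 and 27.1 CPM in KO, against 21.0 and 18.2 CPM in WT (log2 fold change 0.66, SE 0.205, adjusted p = 0.206). In these 4 both KO values exceeded both WT values.

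Genes that control the translation of TOP mRNAs had values of both signs. Of 15 tested genes, 0 were called by edgeR and 1 by DESeq2, Ddit4; 1 had an unadjusted p under 0.05 with each. A total of 7 were positive and 8 negative, and the median was -0.06. Ddit4, an inhibitor of mTOR complex 1 induced by stress, had 2.34 and 4.02 CPM in KO, against 4.81 and 10.2 CPM in WT (log2 fold change -1.24, SE 0.409, adjusted p = 0.235 with edgeR). Its adjusted p was 0.0456 with DESeq2 and 4.6e-04 in edgeR without the filter. Without KO replicate 2 it was 8.8e-04 and without WT replicate 1 it was 1.4e-05, while over all alternatives it reached 0.614, without WT replicate 2. Larp1 had 230 and 111 CPM in KO and 209 and 91.3 CPM in WT, so its replicates differed far more than its genotypes, with replicate 2 the lower one in each.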

How the data were processed

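Liver RNA of 2 KO and 2 WT samples was selected for poly(A) tails and sequenced as paired reads of 101 bases, without strand information, per the labels. The authors deposited raw counts, 1 whole number per Ensembl gene. TopHat2 2.1.1, HTSeq 0.6.0 and the mm10 build are named in the submitters' processing notes; counting options and annotation release are not stated there. Nothing in the labels ties the libraries to different animals. The p-values may therefore reflect technical spread alone.

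Symbols, biotypes and positions are from GENCODE M21 (35533 of 37315 identifiers matched). All genes were tested together with edgeR 4.0.16 (R 4.3.3): filterByExpr with minimum count 10 and minimum total 15, TMM scaling, a robust two-sided quasi-likelihood test of genotype, Benjamini-Hochberg adjustment over 13836 genes and a threshold of 0.05. SE was derived from the log2 fold change and F. CPM values are counts scaled to library size after TMM, and per-kilobase levels use the shortest CCDS protein-coding transcript. The procedure was tested on simulated data. Shares were compared by exact permutation tests. DESeq2 1.42.0, limma-voom 3.58.1, other scaling and filters, a transcript-length offset, a replicate term and leaving out each library were alternatives.

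The family's members, the gene lists and the rule for named genes were chosen with earlier results of these data known. Named genes are Fto, the 5 highest and 5 lowest log2 fold changes, the 4 highest and 4 lowest levels per length, the paralog pairs, the stalk, members with roles outside the ribosome, Fau and Rack1, and up to 4 genes of smallest p per other list. Further members, Rps27rt, Cdkn1a and Larp1 were added after their values were seen. Some genes are not reported here. Total counts per library lay between 39549592 and 44689114.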

Additional observations from a re-analysis of the deposited data

How the results depend on the processing

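The number of ribosomal protein genes called stayed at 0 with DESeq2, library size alone, no filter on low counts, limma-voom, TMM without the family, a transcript-length offset and each library left out. Of all genes, 264 were called, against 574 with DESeq2, 829 without the filter, 481 with the length offset and 460 to 633 with a library left out. Equal replicate numbers are not said to pair animals, and with 2 pairs this cannot be settled; deviations of same-numbered libraries correlated with r = 0.43 over 13836 genes and 0.80 over the family. With the replicate block, 2729 genes were called, among them 35 of the family, 34 higher (10.1% of all tested genes were) and 1 lower (9.58% were), Rps27l; 16 named members were called and 50 of the family had an unadjusted p under 0.05. With the replicate block and the length offset together these were 2508 genes, 45 of the family, all 45 higher (8.71% of all were), and 18 named members. Of the other lists, the replicate block called 8 biogenesis genes (Gnl3, Tsr1, Nop2 and Polr1a among them), 2 of TOP control (Ddit4 and Eif4ebp2), 1 TOP factor (Eef2) and Rack1. An unadjusted p under 0.05 was reached by 7 of the family with library size alone and 2 without the filter. The family's median was 0.21 to 0.27 under the settings that kept all libraries. Over the whole family, 24 of 80 log2 fold changes were negative without WT replicate 1. Named genes whose log2 fold change reversed when 1 library was left out included Rpl38 (-0.080 to 0.10), Rplp2 (-0.16 to 0.44), Rpl11 (-0.036 to 0.25), Rpl22 (-0.047 to 0.37), Rpl23a (-0.068 to 0.35), Rpl26 (-0.019 to 0.42), Rpl31 (-0.16 to 0.29), Rpl36a (-0.046 to 0.51), Rpl36al (-0.096 to 0.14), Rpl39 (-0.16 to 0.23), Rps4l (-0.33 to 0.43), Fau (-0.032 to 0.29), Rpl41 (-0.0099 to 0.44), Rplp1 (-0.013 to 0.37) and Rps14 (-0.016 to 0.38). The KO minus WT difference in pair share ran from -0.0470 to 0.0545 points for Rpl3l, -1.15 to 1.14 points for Rpl7l1, -0.535 to 1.32 points for Rpl22l1 and -2.14 to 0.455 points for Rps4l.

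The tested genes of the family had at least 316 reads in every library, and with 2 libraries per genotype the exact tests cannot go below 0.33. The cause of each change was not tested.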
